A study of Homo sapiens with 9 samples.

Results

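The transcripts described here encode 8 proteins that build or steer the U2 snRNP at the branchpoint: SF3A2, SF3B3, PHF5A, DDX46, U2SURP, SF1, RBM39 and RBM5. They were taken as every entry with one of these gene symbols in the lists of RNA editing sites left by GPATCH8-ADAR and ADAR-SUGP1. Together they are 8 of the 1513 genes on either list. The members were chosen because they appear on these lists, so their presence, their site counts and the regions of their sites are given as a description, without a test.

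The U2 snRNP is the particle of the spliceosome that pairs with the branchpoint, the adenosine in the intron that attacks the 5′ splice site. SF1 first binds the branchpoint sequence and the U2AF heterodimer binds the tract downstream of it, and the SF3A and SF3B complexes of the U2 snRNP then take over the site. SUGP1 is a G-patch protein that works with the SF3B1 subunit at this step and is lost from SF3B1 carrying cancer hotspot mutations, and GPATCH8 is a second G-patch protein that the study's title links to mis-splicing by mutant SF3B1.

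In TRIBE-seq an RNA-binding protein is joined to the deaminase domain of a hyperactive fly ADAR enzyme, which turns adenosines near the contacted RNA into inosines, and these are read as guanosines. The cells were 293T, a human embryonic kidney line, and every library is labelled as wild type for SF3B1. GPATCH8-ADAR (2 libraries) and a non-targeting control fusion (2 libraries) were sequenced in run 1, while ADAR-SUGP1 (2 libraries), its own control fusion (2 libraries) and untransfected cells (1 library) were sequenced in run 2. Transfected cells were sorted for green fluorescence and against dead cells 24 h after the plasmids were given, so both proteins were expressed from plasmids on top of the cell's own. The sample descriptions write the second fusion as SUGP1-ADAR, and the name of the file header is used here.

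Each fusion has 1 deposited list, which joins its replicate libraries and leaves out the editing seen endogenously or with the control. No replicate values, positions, editing levels or read depth are in the lists, so a count has no error, and no control value stands beside it. The lists also give no expression levels, and the identity of the cells could not be checked against marker genes. The GPATCH8-ADAR list held 565 genes, of which 533 shared 797 sites in the transcript body (UTRs, coding sequence and introns). The ADAR-SUGP1 list held 1110 genes, of which 1041 shared 1358 such sites. The remaining genes were listed without a body site. A gene can be missing from a list because it was not expressed, was not contacted or was read too shallowly. Its sites can also have been left out as endogenous or control editing, or in joining the replicates. These reasons cannot be told apart. Fusion and sequencing run also cannot be told apart.

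The GPATCH8-ADAR list held 6 of the 8 genes, with 11 sites in 6 transcripts, and the ADAR-SUGP1 list held 4, with 8 sites in 4 transcripts and a further RBM5 transcript without a site in its body. Of all 1513 genes on either list, 37.3% were on the GPATCH8-ADAR list and 73.4% on the ADAR-SUGP1 list. SF3A2, PHF5A, DDX46 and U2SURP were listed with GPATCH8-ADAR only, SF1 and RBM5 with ADAR-SUGP1 only, and SF3B3 and RBM39 with both. Among all listed genes 403 were on the GPATCH8-ADAR list only (26.6%), 948 on the ADAR-SUGP1 list only (62.7%) and 162 on both (10.7%). The sites of the 8 genes made up 1.38% of the GPATCH8-ADAR sites and 0.589% of the ADAR-SUGP1 sites. No interval is given for these shares, because the genes were chosen from these lists and sites of a gene are not independent of each other. The shares are a description and no comparison of the fusions.

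**Figure D1:**
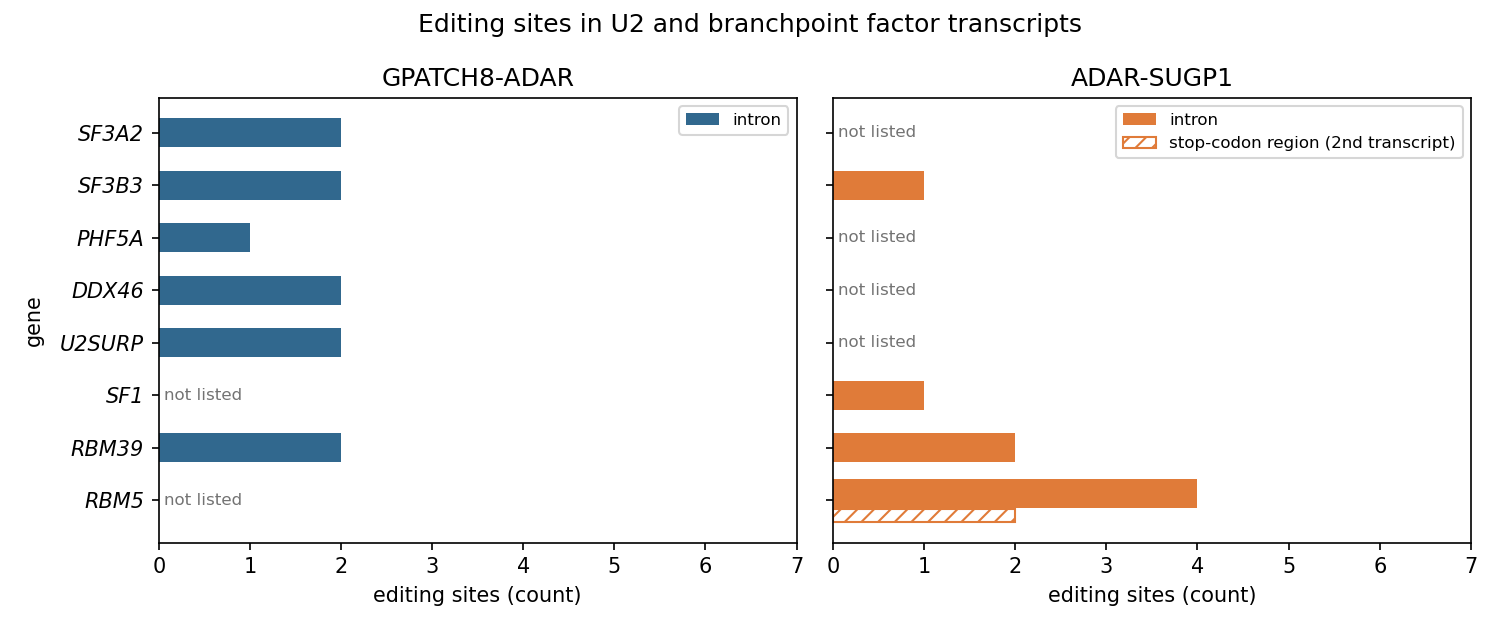
Editing sites (count, horizontal axis) in each of the 8 genes (vertical axis) with GPATCH8-ADAR (left) and ADAR-SUGP1 (right). Filled bars are intronic sites and the thin hatched bar is the stop-codon count of a further RBM5 transcript; each bar is 1 deposited count without replicates. None of the 8 genes has more than 2 sites with GPATCH8-ADAR, and RBM5 has 4 intronic sites with ADAR-SUGP1.

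The 3 SF3A and SF3B subunit genes among the 8 had 5 sites on the GPATCH8-ADAR list and 1 on the ADAR-SUGP1 list. Over all genes these lists held 797 and 1358 body sites. Another 7 of the 10 subunit genes on the 40-gene list described below were on neither list. SF3A2, a zinc-finger subunit of SF3A that helps to attach the complex to the U2 snRNP, had 2 intronic sites in ENST00000221494.5 with GPATCH8-ADAR and no entry with ADAR-SUGP1. SF3B3, the large beta-propeller scaffold of SF3B, had 2 intronic sites on the first list and 1 on the ADAR-SUGP1 list. Both of its counts belong to ENST00000302516.5. PHF5A, a small protein that forms the branchpoint pocket together with SF3B1, had 1 intronic site in ENST00000216252.3 with GPATCH8-ADAR and was not listed with ADAR-SUGP1. SF3B3 was thus the subunit gene that both lists share, and its counts differ by a single site.

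Of the proteins associated with the U2 particle, DDX46 and U2SURP are among the 8 genes, and both were listed with GPATCH8-ADAR alone. Another 6 of the 8 such proteins on the 40-gene list described below were on neither list. DDX46 (Prp5 in yeast), the helicase that remodels the U2 snRNP as it joins the branchpoint, had 2 intronic sites in ENST00000507392.1. U2SURP, an SR-related protein found with the U2 snRNP, had 2 intronic sites in ENST00000488497.3. SF1, the branchpoint-binding protein that comes before the U2 snRNP, had 1 intronic site in ENST00000377387.1 with ADAR-SUGP1 and no entry with GPATCH8-ADAR. Of all genes on either list, 26.6% were listed with GPATCH8-ADAR only and 62.7% with ADAR-SUGP1 only. A split of the fusions by role was not tested.

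RBM proteins bind RNA and influence the choice of splice sites. Of those among the 8 genes, RBM39 was listed with both fusions and RBM5 with ADAR-SUGP1. RBM39, a U2AF-related protein that can bind SF3B1, had 2 intronic sites on either list, all in ENST00000463004.1. It was the gene of the 8 with equal counts on both lists. RBM5, a regulator of alternative exons that carries a G-patch domain of its own, had 4 intronic sites in ENST00000347869.3 with ADAR-SUGP1. No other of the 8 genes had a higher count with either fusion.

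RBM5 was also the gene of the 8 with several listed transcripts and with a count outside introns. ENST00000404526.2 was listed with 2 sites in the stop-codon region and 0 in the 5′ UTR, coding sequence, 3′ UTR and introns. The lists count the stop-codon region apart from the transcript body, and the extent of that region is not given. Whether these 2 sites are among the 4 counted as intronic in ENST00000347869.3 cannot be told without positions. Of the 1110 genes with ADAR-SUGP1, 202 had several listed transcripts (18.2%) and 143 had a stop-codon site (12.9%); with GPATCH8-ADAR these shares were 7.79% and 3.54%, and none of the 6 listed genes was among them. In 50 of the 202 genes, intronic sites of a transcript stood beside another transcript that had stop-codon sites alone. In 7 of these 50, RBM5 among them, there were at least 2 sites of each kind. A count of 2 was the highest stop-codon count of any transcript with ADAR-SUGP1 and was reached by 13 of 1340 transcripts, of which 10, that of RBM5 included, had no body site.

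Every body site in the 8 genes was intronic, all 11 with GPATCH8-ADAR and all 8 with the other fusion, and the promoter count was 0 in each. Over all genes, introns held 79.0% of the GPATCH8-ADAR sites and 69.2% of the ADAR-SUGP1 sites. Counted by gene, 72.2% of the genes listed with GPATCH8-ADAR and 61.3% of those listed with ADAR-SUGP1 had intronic sites and no other body site. Most listed genes thus had the same placement as these 8. All 11 entries of the 8 genes, which are 9 different transcripts, were typed as protein-coding.

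In number of sites, 5 of the 6 genes listed with GPATCH8-ADAR had 2 sites, and PHF5A had 1. At least 2 sites were present in 28.1% of all genes with this fusion, where the median was 1 and the highest count was 8. With ADAR-SUGP1, RBM5 and RBM39 had at least 2 sites, as did 19.3% of all genes, and SF1 and SF3B3 had 1. The count of 4 in RBM5 was reached or exceeded by 21 of the 1110 genes (1.89%), the highest being 7. The lowest count that can put a body site on a list is 1, and PHF5A, SF1 and, with ADAR-SUGP1, SF3B3 stood at it. PHF5A and SF1 are among the genes described by that single site.

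**Figure D2:**
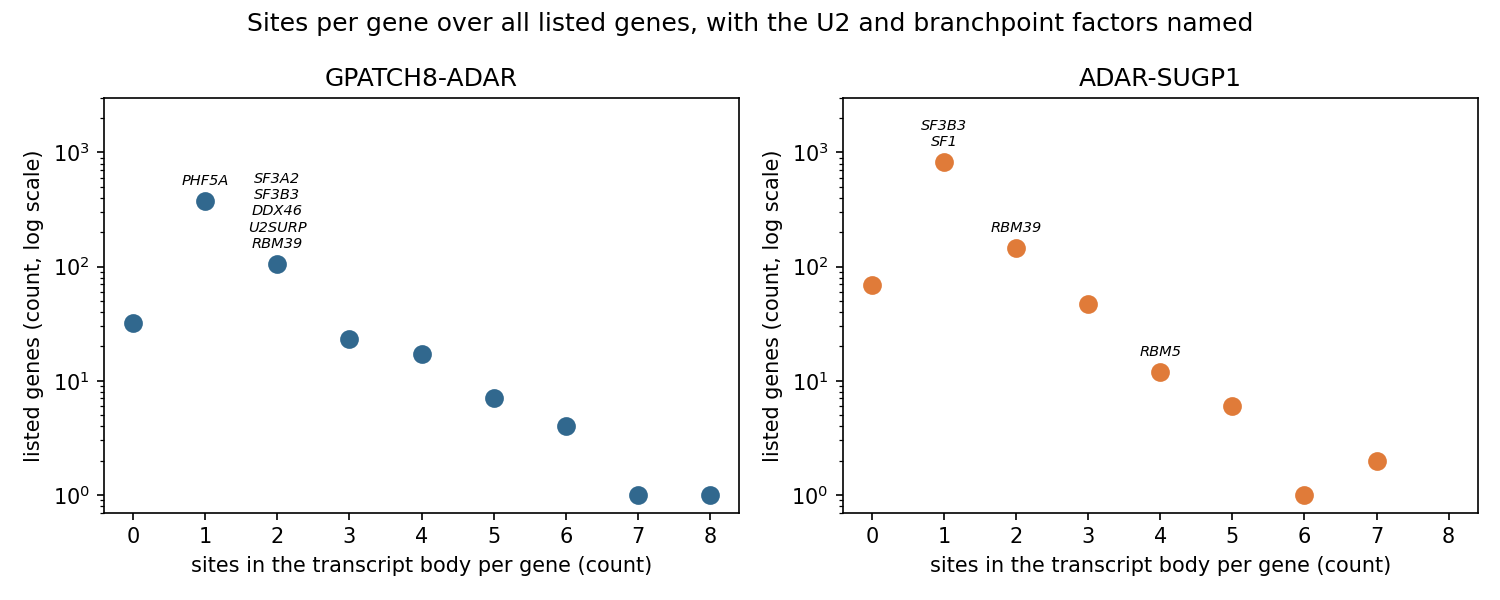
Number of listed genes (vertical axis, log scale) by sites in the transcript body per gene (horizontal axis) with GPATCH8-ADAR (left) and ADAR-SUGP1 (right), with the U2 and branchpoint factors written above the point they belong to; counts that no gene had are left out. The 6 genes on the left stand at 1 or 2 sites, and RBM5 on the right stands at 4, a count or more that 21 of 1110 genes had.

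For SF3B3 and RBM39 the same transcript carried the sites of both fusions. This was the case for at least 1 transcript in 149 of the 162 genes on both lists (92.0%), so it does not set these 2 genes apart. The counts do not say whether the sites lie at the same adenosines. Likeness was measured as identical counts in all regions on both lists, over the other 161 shared genes. The pattern of RBM39, 2 intronic sites with each fusion, was found in 6 of them, among which the first in alphabetical order were DAZAP1, DEGS1, FANCA, HAUS6 and NAA25. That of SF3B3, 2 intronic sites on the first list and 1 on the second, was found in 18, among them AC016629.8, AC133528.2, ANAPC5, ARFGAP2 and CD46.

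The wider set of factors for U2 snRNP assembly and branchpoint choice was described with a list of 40 genes that includes the 8. GPATCH8-ADAR listed 7 of the 40 and ADAR-SUGP1 listed 5, with 2 on both lists, and 30 were on neither. Of 20056 protein-coding genes in a RefSeq table, 2.21% were on the GPATCH8-ADAR list and 4.44% on the ADAR-SUGP1 list under their current symbol. Genes without expression in 293T cells could not have been listed, so these shares are no measure for expressed genes such as splicing factors, and the list was written with the results for the 8 genes known. Outside the 8, the list added TFIP11, a G-patch protein of spliceosome disassembly, with 1 intronic site in ENST00000407690.1 with GPATCH8-ADAR. It also added RBM6, a relative of RBM5 with a G-patch, with 1 intronic site in ENST00000434592.1 with ADAR-SUGP1.

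By role, the SF3A and SF3B subunits numbered 10, of which GPATCH8-ADAR listed 3 and ADAR-SUGP1 listed 1. SF3B1, the subunit mutated in cancer, was on neither list, nor were SF3A1 and SF3A3. Of 8 proteins associated with the U2 particle, 2 were listed with GPATCH8-ADAR and 0 with ADAR-SUGP1. Of 6 factors that recognise the branchpoint or the 3′ splice site, 0 and 1 were listed, and U2AF1 and U2AF2, the subunits of U2AF, were on neither list. Of 8 genes grouped as G-patch proteins and branchpoint helicases, 1 and 0 were listed. RBM5 and RBM6, which also carry a G-patch, were counted with the RBM regulators, and both were listed with ADAR-SUGP1. GPATCH8 and SUGP1 themselves were on neither list, nor was DHX15, the helicase that G-patch proteins stimulate. Of 6 RBM regulators, 1 and 3 were listed, and the RBM5 relative RBM10 and the RBM39 relative RBM23 were on neither. SNRPA1 and SNRPB2, the other U2 snRNP proteins on the list, were absent from both. Of all protein-coding genes, expressed or not, 2.21% and 4.44% were listed under their current symbol. Whether the fusions differ by role was not tested.

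**Figure D3:**
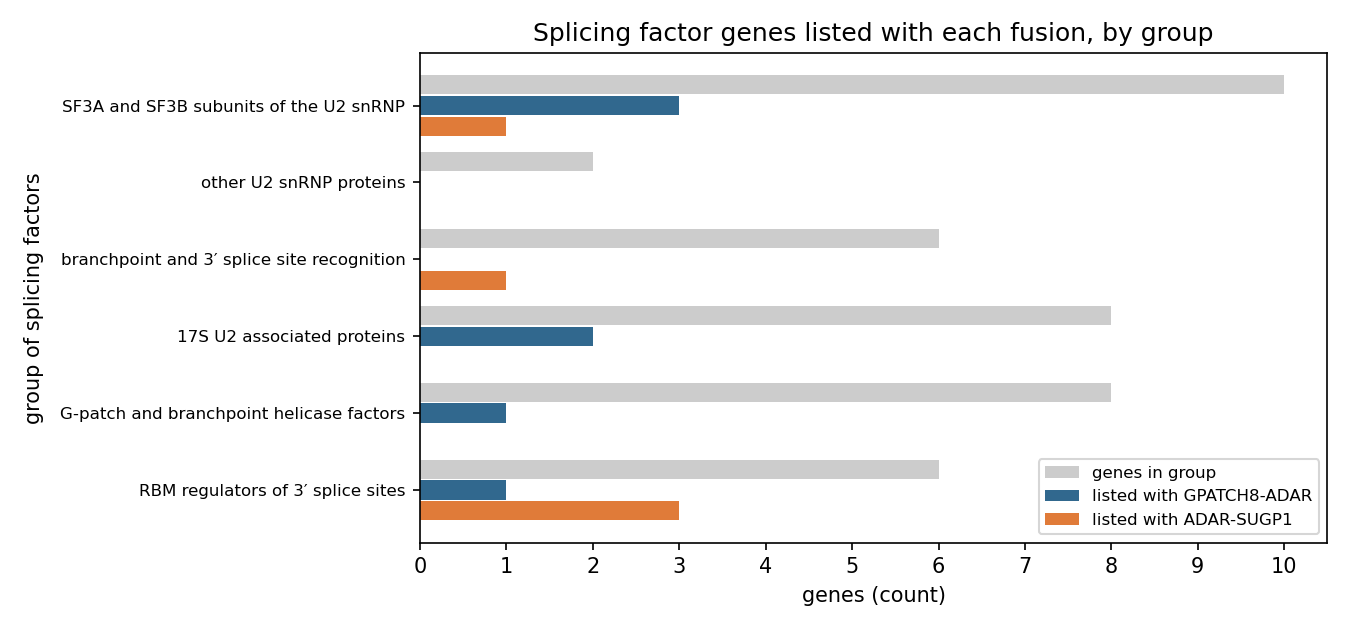
Number of genes (horizontal axis) in each of the role groups of the 40-gene list (vertical axis), with all genes of the group in grey, those listed with GPATCH8-ADAR in blue and those listed with ADAR-SUGP1 in orange. SF3A and SF3B subunits have 3 genes in blue and 1 in orange, and RBM regulators 1 and 3. U2-associated proteins have 2 and 0, G-patch and helicase factors 1 and 0, branchpoint and 3′ splice site factors 0 and 1, and other U2 snRNP proteins 0 and 0. Of all protein-coding genes, expressed or not, 2.21% and 4.44% were listed under their current symbol. The list was written with results known, and a difference by role was not tested.

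A relative of the list stood at the edge of the count. ZRSR1, a near copy of the splice-site factor ZRSR2 and chosen after its values were seen, had 1 stop-codon site on the GPATCH8-ADAR list and 2 on the other in ENST00000391338.1, and no body site with either. Reads can be shared between such copies, so its counts are uncertain.

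The neighbours of the 8 genes on the chromosome were also looked up. Only the order of protein-coding genes in the RefSeq table was used, without strand, overlap or distance. The sources used here do not say whether sites were assigned by strand, and the gene order cannot show it. RBM6 lies next to RBM5, and both were listed with ADAR-SUGP1. PHF20, next to RBM39, was listed with ADAR-SUGP1 as well. A gene listed with the same fusion thus stood beside 2 of the 4 genes with ADAR-SUGP1 and 0 of the 6 with GPATCH8-ADAR. The shares over the protein-coding genes on these lists were 18.6% of 891 and 7.43% of 444. Only names that are current symbols entered, so a neighbour listed under an older symbol was missed. TOB2, next to PHF5A, and C5orf24, next to DDX46, were listed with ADAR-SUGP1, while PHF5A and DDX46 were listed with GPATCH8-ADAR. The antisense RNA RBM5-AS1, which overlaps RBM5, was on neither list.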

How the data were processed

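Libraries of total RNA were depleted of ribosomal RNA by the submitters, whose processing notes name Trimmomatic, STAR and hg19. These sources do not state the site caller, annotation, tool versions or strand handling. Each value the authors deposited is a whole-number count of editing sites (reads are not counted) in a region of an Ensembl transcript, per the file headers. Body sites add up UTR, coding and intron counts, which equalled the deposited transcript count in all 612 and 1340 entries; 572 blank rows were skipped. A gene's count is the sum over its transcripts, taking each site as counted for 1 of them.

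Gene symbols were matched as written. All 8, and all 40 of the wider list, are current symbols in a RefSeq table (GRCh38.p14). It served for names, gene order and the set of protein-coding genes only. Of 1513 names, 1244 were current symbols and 123 matched exactly 1 gene as a synonym. The other 146 matched no gene or several. Names that are not current symbols are left out of the shares of protein-coding genes and the neighbour shares. The genes named were the 8, every further listed gene of the 40, the fusion partners and SF3B1, and up to 5 genes with the same counts as each shared gene; other list genes are named as absent examples. ZRSR1, the neighbours PHF20, TOB2 and C5orf24, and RBM5-AS1 fall outside this rule and were chosen after values were seen. Members and lists were chosen with earlier results of these data known. Counting was tested on simulated data. Python 3.11.15, pandas 2.3.3 and SciPy 1.17.1 were used. Alternatives were a minimum of 1 or 2 body sites, the top transcript per gene, protein-coding transcripts only, older symbols, and shares of all counts. Library depth is unknown.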

Additional observations from a re-analysis of the deposited data

How the results depend on the processing

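Of 42 alternative values for the member counts, sites, intronic shares and list counts, 40 kept their label. The limit was 1.5 times the count or the exact (Clopper-Pearson) interval of the share. Most of these alternatives could not change a value. Each of the 8 genes has a body site, and all 11 of their entries are protein-coding. Every body site in them is intronic, and no gene of the 40 was listed only under an older symbol. The 40 values that kept their label are therefore no evidence that the results hold under other processing. With at least 2 body sites required, the genes listed with ADAR-SUGP1 went from 4 to 2 and those of the 40-gene list from 5 to 2, because SF1, SF3B3 and RBM6 have 1 site each. With GPATCH8-ADAR the same minimum left 5 of 6 genes. With the stop-codon sites counted in, 80.0% of the counts with ADAR-SUGP1 were intronic. No paired analysis was possible because each list joins both replicates, and for the same reason no replicate could be left out. Site depth is unknown, so a gene missing from a list has no bound.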
